A study of Homo sapiens with 6 samples.

Results

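The clustered protocadherins are 53 protein-coding genes on the plus strand of chromosome 5, chosen by their symbols from a table of 58884 genes. They comprise 15 alpha genes (PCDHA1 to PCDHA13, PCDHAC1 and PCDHAC2), 16 beta genes (PCDHB1 to PCDHB16) and 22 gamma genes of the GA, GB and C types. In the GRCh37 annotation the alpha genes lie at chr5:140165721-140391932, the beta genes at chr5:140430959-140628933 and the gamma genes at chr5:140710081-140892544. The members were compared between parental DLD1 cells, a colorectal cancer cell line, and DLD1 cells that carry p85β K477A/R478A (p85β KR-AA, the mutant cells below). These substitutions were knocked into PIK3R2, the gene for the p85β regulatory subunit of phosphoinositide 3-kinase. They lie in the predicted nuclear localization sequence, and both groups share the helical domain mutation of PIK3CA that DLD1 carries. RNA of 3 parental and 3 mutant libraries was sequenced. The study describes a pair of independently derived homozygous knock-in clones, and the libraries are not named by clone, so that clone and genotype cannot be told apart. The source labels of mutant replicates 2 and 3 number the arginine differently from their titles, and the titles were followed.

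Clustered protocadherins are transmembrane adhesion proteins of the cadherin superfamily, known best from neurons, where each cell uses its own combination of members and homophilic recognition lets neurites tell self from non-self. Each variable exon has its own promoter and encodes the extracellular, transmembrane and first cytoplasmic part of a protein. In the alpha and gamma clusters this exon is spliced to constant exons that all members of the cluster share, whereas beta genes have a single coding exon each and no constant part. Promoter choice in neurons involves CTCF, cohesin and DNA methylation, and the C-type members are known to follow a rule of their own. As a consequence of the shared exons, a read from a constant exon does not identify its alpha or gamma member. The annotated exons that an alpha member shares with another alpha member covered 19.2% to 56.7% of its exonic bases, and the range in the gamma cluster was 27.5% to 64.4%. No beta member shared annotated exonic bases with another. Among estimated counts above 0, 97.3% of 37 alpha values, 91.5% of 82 gamma values and 23 of 46 beta values were not whole numbers, which shows that reads were divided among genes. The values of single alpha and gamma members are therefore uncertain, and the sum over a cluster does not depend on how its own shared reads were split.

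The promoters show what the members have in common outside the measured values. RefSeq promoter windows of the GRCh38.p14 build, from 250 bases before to 50 bases after the start, matched 47 of the 53 members. The members without a window were PCDHA3, PCDHA13, PCDHB6, PCDHB11, PCDHGA12 and PCDHGC5. The letters CGCT, the core of the conserved sequence element of protocadherin promoters, stood within the 100 bases before the start on the sense strand in 44 of the 47 windows (93.6%), and in 28.0% of all 27305 promoters. The windows below were chosen to set members with high levels in mutant libraries beside members without a count in any library. Each shows a CGCT in capitals with 18 bases on either side, on the plus strand of GRCh38.p14. The alpha windows are those of PCDHA12 (chr5:140875242-140875281), PCDHA11 (chr5:140868881-140868920), PCDHA2 (chr5:140794779-140794818) and PCDHA5 (chr5:140821540-140821579), and the last 2 of these genes had no count.
PCDHA12: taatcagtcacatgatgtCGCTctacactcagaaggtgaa
PCDHA11: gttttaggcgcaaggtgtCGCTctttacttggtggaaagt
PCDHA2: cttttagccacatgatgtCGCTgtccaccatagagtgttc
PCDHA5: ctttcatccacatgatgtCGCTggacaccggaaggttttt

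The beta windows are those of PCDHB13 (chr5:141213863-141213902), PCDHB16 (chr5:141182308-141182347), PCDHB10 (chr5:141192297-141192336) and PCDHB4 (chr5:141121721-141121760), the last without a count.
PCDHB13: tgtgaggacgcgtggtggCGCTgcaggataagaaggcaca
PCDHB16: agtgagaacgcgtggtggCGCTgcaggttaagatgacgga
PCDHB10: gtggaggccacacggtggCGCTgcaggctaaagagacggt
PCDHB4: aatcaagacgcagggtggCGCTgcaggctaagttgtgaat

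The gamma windows are those of PCDHGC3 (chr5:141475897-141475936), PCDHGA10 (chr5:141412929-141412968), PCDHGB4 (chr5:141387615-141387654) and PCDHGA3 (chr5:141343765-141343804), the last without a count.
PCDHGC3: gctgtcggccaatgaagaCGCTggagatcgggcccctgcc
PCDHGA10: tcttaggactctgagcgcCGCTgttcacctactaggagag
PCDHGB4: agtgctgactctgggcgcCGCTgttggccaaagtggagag
PCDHGA3: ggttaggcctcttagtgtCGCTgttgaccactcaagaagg

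Members with high levels and members without a count both held CGCT and, within the alpha and beta clusters, much of the same surrounding sequence. The run CATGATGTCGCT stood in 8 of 13 alpha windows, PCDHA12, PCDHA2 and PCDHA5 included, and in no window of a gene outside these 8 among the 27305. The run GGTGGCGCTGCA stood in 10 of 14 beta windows and in 12 of all windows (0.0439%), and it was present in PCDHB13, PCDHB16, PCDHB10 and PCDHB4. The gamma windows were less alike, with GCCGCTGT in 11 of 20 windows and in 0.894% of all windows. PCDHGC3, PCDHGB5 and PCDHGB6 are among these 11, but the CGCT taken for them by its distance lies outside this run. The CGCT taken for a member therefore need not be the core of the conserved element. The CGCT taken lay at a median of 55 bases before the start, with quartiles of 41 and 64 bases. Where a window held more than 1 CGCT before the start, the one nearest the median distance of members with only 1 was taken. This choice draws the positions together, so that their narrow range is in part its product. PCDHGC3 held 5 and PCDHGB4 held 3 before the start, of which 1 each is shown above. The letters AGGNGGC of the CTCF motif were found on either strand in 4 of the 47 windows (8.51%) and in 35.6% of all promoters, where N is any base. The members had a median of 7 CpG dinucleotides in a window, against 13 over all promoters and 20.5 in the 4 C-type windows. These matches are a description of the letters and were not tested against the expression values. For the CTCF motif only exact matches were counted. The shared run of the beta windows begins with all of its letters but the first, and such near matches were left out. The low share therefore describes the letters chosen and does not show that the members lack CTCF sites.

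**Figure D1:**
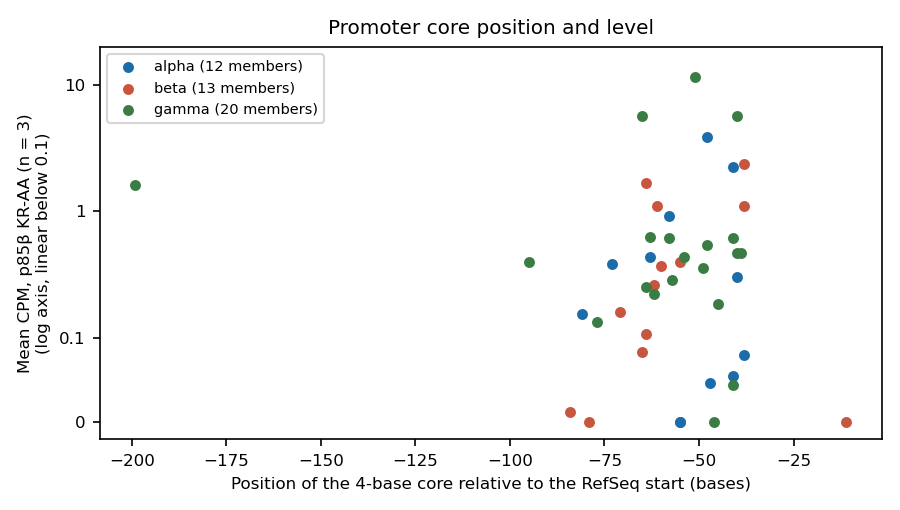
The x axis is the position of a CGCT relative to the RefSeq start (bases, negative before the start). The y axis is the mean level in the 3 mutant libraries (CPM, log axis above 0.1 and linear below). There is 1 point for each of the 45 members with CGCT before the start. The CGCT shown need not be the core of the conserved element. Where a member has more than 1, the CGCT nearest the median distance of members with only 1 is shown, a choice that draws positions together. The positions of members at 0 CPM and of members above 1 CPM overlap, and 42 of the points lie 30 to 85 bases before the start.

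Total counts were 20301932 to 20873475 in parental libraries and 20301396 to 26712816 in mutant libraries. Levels are given as CPM, the counts scaled to a fixed TMM-normalized library size, on which 1 count was worth 0.0617 to 0.0728 CPM in parental and 0.0273 to 0.0364 CPM in mutant libraries. A count of 0 in all 3 libraries of a group allows up to 3 counts over the group, 0.0667 CPM in parental and 0.0323 CPM in mutant cells, a limit that covers counting error only. Groups were compared with edgeR's quasi-likelihood test over 16059 genes, and a gene was called when it differed by 3-fold or more with a Benjamini-Hochberg adjusted p under 0.01. At these thresholds 28.6% of all tested genes were called higher in mutant cells and 17.6% lower. Library totals in place of TMM moved the median log2 fold change of all genes up by 0.92 and the share of higher genes among those called from 61.9% to 87.9%. When the fit had offsets for length and GC content, that share was 73.1%. Fewer cells of a type and less RNA per cell cannot be told apart in such bulk libraries.

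The labelled colon origin was checked against marker genes fixed for 4 kinds of cell. The summed level of 12 colon epithelial markers was 57200 to 79300 CPM in parental and 8810 to 10300 CPM in mutant libraries, with 2 markers called higher and 7 lower among 11 tested, and 0 higher and 3 lower with the length and GC offsets. The epithelial markers KRT8, KRT18 and CDX2 were present in every library of both groups, and all were called lower. CDH1 and CDH17 were the 2 called higher. LGALS4 fell from 6.04 to 0.659 CPM and PHGR1 from 10.4 to 1.04 CPM, and CDX1 had no count in replicate 2 of either group. Markers of other cell types moved with the groups as well. The 12 mesenchymal markers summed to 7.65 to 10.6 CPM in parental and 6320 to 7230 CPM in mutant libraries, with 6 of 8 tested called higher, and 7 with the offsets, while COL1A2, PDGFRA and TWIST1 were at 0 in all mutant libraries. Most of the mutant sum was FN1, at a mean of 4990 CPM, and VIM, at 1770 CPM. The 14 neuron markers summed to 523 to 610 CPM in parental and 350 to 371 CPM in mutant libraries. Most of this sum was TUBB3, at 561 CPM in parental and 211 CPM in mutant cells (log2 fold change -1.41, and -0.05 with the offsets, not called). Without TUBB3, left out after the values were seen, the order turned, with 2.78 to 3.79 CPM in parental and 145 to 147 CPM in mutant libraries. Most of this mutant sum was NEFL alone, at 130, 131 and 134 CPM in mutant replicates 1 to 3 and without a count in parental libraries. Of 7 neuron markers tested, NEFL, SYT1, MAP2, NEFM and GAP43 were called higher, SYP had a log2 fold change of -0.63 and was not called, and DCX, ELAVL4 and INA had no count in any library. With the offsets 4 were called higher, and the log2 fold change of MAP2 was 0.32 in place of 2.73. Beside these marker counts, 28.6% of all tested genes were called higher and 17.6% lower. With the offsets 17.8% of all genes were called higher, and 1041 of 15902 lower. COL3A1, DCN, LUM, ZEB1, NEFL, NEFM and GAP43 had no parental count, so each passed the filter through its mutant counts. The 6 blood markers summed to 4.69 to 6.70 CPM and 4.07 to 5.06 CPM. The part of these differences in the protocadherin results was not tested.

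In parental cells the locus was close to the limit of detection. All 53 members together summed to 5.25, 2.18 and 4.57 CPM in parental replicates 1, 2 and 3, and 29 members had no count in any parental library. In mutant replicates 1, 2 and 3 the sum was 47.7, 52.1 and 52.6 CPM, a ratio of the group means of 12.7. The lowest mutant sum was thus well above the highest parental one, and the mutant sums differed little among themselves. The alpha sum was 1.33, 0.728 and 1.54 CPM in parental libraries and 9.27, 10.6 and 8.27 CPM in mutant libraries, that is 1.20 ± 0.422 against 9.39 ± 1.18 CPM (SD, n = 3 each). The beta sum was 0.399, 0.0728 and 0.308 CPM in parental libraries and 10.9, 10.4 and 11.95 CPM in mutant libraries, that is 0.260 ± 0.168 against 11.1 ± 0.768 CPM (SD, n = 3 each). The gamma sum was 3.52, 1.38 and 2.71 CPM in parental libraries and 27.5, 31.0 and 32.4 CPM in mutant libraries, that is 2.54 ± 1.08 against 30.3 ± 2.51 CPM (SD, n = 3 each). In each cluster the groups did not overlap, and the ratio of the means was 7.83 for alpha, 42.7 for beta and 11.9 for gamma. The beta ratio rests on 6, 1 and 5 parental counts. No test of these sums was made, since 3 against 3 libraries allow no exact permutation p below 0.1.

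**Figure D2:**
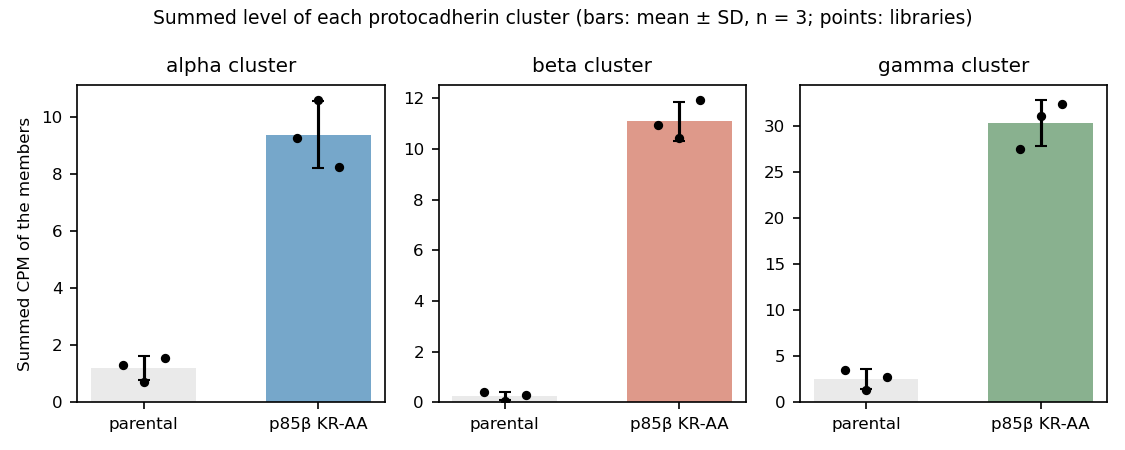
Summed CPM (y axis, from 0) of the alpha, beta and gamma members in parental and mutant cells. Bars are means with SD (n = 3) and points are libraries. In every cluster the mutant libraries lie above all parental libraries, with means of 9.39, 11.1 and 30.3 CPM against 1.20, 0.260 and 2.54 CPM.

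Of the 53 members, 48 had a count in at least 1 library. PCDHA2, PCDHA5, PCDHB4, PCDHB5 and PCDHGA3 had none. All 3 mutant libraries lay above all 3 parental libraries for 32 of these 48 genes, 6 alpha, 11 beta and 15 gamma, and for no member was the order reversed. The background for this order is 32.8% of the 28759 genes with a count in any library. Of these 32 members, 15 were too low to be tested. A level over 1 CPM in every mutant library was reached by 9 members, 2 alpha, 4 beta and 3 gamma, and by none in the parental libraries. More than 3 counts in every library of the group were present for 31 members in mutant cells and for 2 in parental cells. These counts were rounded, and a count stands for a lower CPM in mutant than in parental libraries. More genes of the whole table had a count in mutant libraries (23231 to 24399) than in parental libraries (18989 to 19707). The 2 members above 3 counts in every parental library are PCDHAC2 and PCDHGA10, singled out here with their values known.

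The filter on low counts was passed by 18 members, that is 5 alpha, 5 beta and 8 gamma. No member had at least 10 counts in every parental library, so each of them passed through its mutant counts, and the following numbers describe these genes without bearing on the rest. Called higher were 15 of the 18 (83.3%, against 28.6% of all tested genes), namely 3 alpha, 5 beta and 7 gamma genes. PCDHA4, PCDHAC2 and PCDHGA6 were not called. None was called lower by edgeR or DESeq2, and 0 had a negative log2 fold change at an unadjusted p under 0.05. The mutant libraries lay above all parental libraries for 17 of the 18, where the share of all tested genes is 47.0%. With these length and GC offsets, 14 of the 18 were called higher, where the share of all genes tested in this way is 17.8%. The median log2 fold change was 3.17 for the tested alpha, 7.67 for the beta and 5.86 for the gamma genes, against 0.32 for all tested genes. The beta median is the fitted value of PCDHB16 and PCDHB10, both without a parental count, and DESeq2 gave 6.43 for PCDHB16. These medians depend on the fit and do not rank the clusters. For 7 of the called genes the rounded parental counts were 0, so that their fitted fold changes are not bounds and lower limits are given instead.

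**Figure D3:**
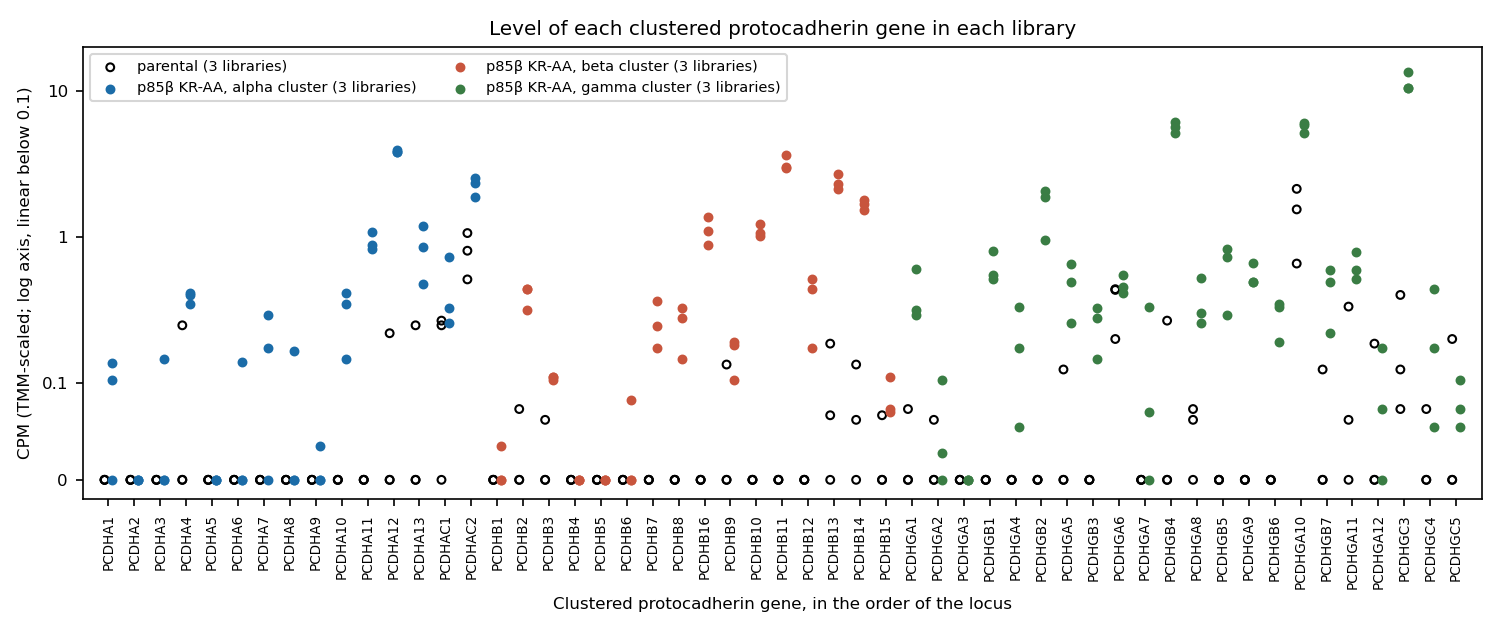
Level of every member in every library (y axis, CPM, log axis above 0.1 and linear below), in the order of the locus. Open circles are parental libraries and filled circles mutant libraries, coloured by cluster. Of the members over 1 CPM in all filled circles, PCDHB10 and PCDHB11 are adjacent, as are PCDHB13 and PCDHB14. Lower members lie between the others, and PCDHGC3 is highest at a mean of 11.5 CPM.

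Among the alpha genes with a variable exon of the ordinary type, PCDHA12 (ENSG00000251664) had the highest level. It had estimated counts of 0, 2.61 and 0 in parental replicates 1 to 3, against 140.2, 113 and 105 in mutant replicates 1 to 3. Its level was 0.0728 ± 0.126 CPM in parental and 3.86 ± 0.0648 CPM in mutant cells (SD, n = 3 each), a ratio of 57.8 with an exact 95% counting interval of 19.6 to 282 (adjusted p = 1.06e-06, edgeR quasi-likelihood test). Without parental replicate 2, which held its only parental counts, the fitted log2 fold change moved from 5.74 to 9.58, and without parental replicate 3 it was 5.10. With the length and GC offsets it was 4.74 (adjusted p = 3.66e-05, same test). PCDHA11 (ENSG00000249158) had no parental count and 30.1, 30.7 and 24.2 counts in the mutant libraries, at least 13.7-fold higher than 3 counts over the parental group (adjusted p = 3.68e-05, same test). PCDHA13 (ENSG00000239389) had 0, 0 and 3.80 parental counts and 30.7, 33.8 and 13.3 in mutant libraries, a log2 fold change of 3.17 (SE 0.79, adjusted p = 2.39e-03, same test). Its groups did not overlap, but its call depended on single libraries. The adjusted p was 0.0166 without parental replicate 1 and 0.0128 without parental replicate 2, and 0.0354 with the length and GC offsets. Without parental replicate 3, the only one with counts of PCDHA13, the fitted log2 fold change was 7.35. PCDHA4 had 0, 0 and 4.18 parental counts and 15.2, 9.80 and 10.5 in mutant libraries, and was not called (log2 fold change 2.06, adjusted p = 0.0299, same test). PCDHA10, with 14.8, 10.3 and 4.18 counts in mutant libraries and none in parental libraries, was too low to be tested, and the other 8 ordinary alpha genes had a mean of at most 0.155 CPM in mutant cells.

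The C-type members of the alpha cluster differed less between the groups. PCDHAC2 (ENSG00000243232) was the main alpha member in parental cells, with 16.5, 7.39 and 13.1 counts, and had 85.7, 73.0 and 50.6 counts in mutant libraries. The mutant libraries all lay above the parental ones. Its log2 fold change of 1.49 (SE 0.33, adjusted p = 1.14e-03, edgeR quasi-likelihood test) stayed below the fold threshold of 3. It passed that threshold with library totals (log2 fold change 2.41), when mutant replicate 3 was left out (1.61) and when parental replicate 1 was left out (1.75), and was 0.53 with the length and GC offsets (adjusted p = 0.145). PCDHAC1 had 3.53, 0 and 3.92 parental counts and 11.9, 21.3 and 7.42 counts in mutant libraries, and was too low to be tested.

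The beta genes have no constant exons, and their counts were whole numbers more often than those of the other clusters. PCDHB11 (ENSG00000197479, chr5:140579183-140583352 of GRCh37) had no count in parental libraries and 109, 86.4 and 99.0 counts in mutant libraries. Its mean of 3.19 ± 0.360 CPM (SD, n = 3) was at least 47.5-fold higher than 3 counts over the parental group (adjusted p = 6.43e-07, edgeR quasi-likelihood test). PCDHB13 (ENSG00000187372) had 1, 0 and 3 parental counts and 78.4, 65.7 and 73.6 in mutant libraries, with a log2 fold change of 4.66 (SE 0.54, adjusted p = 3.90e-06, same test). Without parental replicate 3, with most of these counts, it was 5.86, and with the length and GC offsets 3.60. PCDHB14 (ENSG00000120327) had 2, 0 and 1 parental counts and 66.5, 44.3 and 46.0 in mutant libraries, a ratio of 25.2 with an exact 95% counting interval of 8.47 to 124 (adjusted p = 7.72e-06, same test). Its fitted log2 fold change of 4.54 became 5.44 without parental replicate 1 and 3.39 with the offsets.

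PCDHB16 and PCDHB10 completed the called beta genes. PCDHB16 (ENSG00000272674) had 32.0, 39.0 and 30.1 counts in mutant libraries and none in parental libraries, at least 16.3-fold higher (adjusted p = 2.73e-05, edgeR quasi-likelihood test). PCDHB10 had 45.3, 28.6 and 29.0 counts and none, at least 16.6-fold higher (adjusted p = 1.84e-05, same test). These 5 genes lie in the distal part of the cluster, but not all members there were high. PCDHB9, between PCDHB16 and PCDHB10, had a mean of 0.159 CPM in mutant cells, and its groups overlapped. PCDHB12 reached only 16, 5 and 14 counts, a mean of 0.374 CPM, and PCDHB15 a mean of 0.0839 CPM. The proximal members PCDHB1 to PCDHB6 stayed at or below a mean of 0.396 CPM, the value of PCDHB2, which is above these 3 distal members.

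In the gamma cluster PCDHGC3 (ENSG00000240184), a C-type member known to be expressed outside neurons, had the highest level of all 53 genes in mutant cells. It had 5.76, 1 and 2.50 counts in parental libraries and 383, 302 and 371 counts in mutant libraries. Its mean level of 11.5 ± 1.75 CPM in mutant cells compared with 0.198 ± 0.175 CPM in parental cells (SD, n = 3 each). The log2 fold change was 5.81 (SE 0.38, adjusted p = 2.69e-08, edgeR quasi-likelihood test), and 6.76 without parental replicate 1. The other C-type members of the cluster were far lower. PCDHGC4 had 0.37, 0.88 and 0 parental counts and 1.76, 4.68 and 12.2 counts in mutant libraries. PCDHGC5 had 3.32, 0 and 0 against 1.79, 2.84 and 1.91 counts, and its groups overlapped.

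PCDHGB4 (ENSG00000253953) and PCDHGA10 (ENSG00000253846) had nearly equal levels in mutant cells and unequal ones in parental cells. PCDHGB4 had 3.75, 0 and 0 parental counts and 189, 177 and 156 counts in mutant libraries, a log2 fold change of 5.91 (SE 0.54, adjusted p = 4.86e-07, edgeR quasi-likelihood test). Without parental replicate 1, which held its only parental counts, the fitted value was 10.12, and without parental replicate 3 it was 5.26. PCDHGA10 had 32.1, 9 and 24.8 parental counts and 188, 169 and 166 counts in mutant libraries. It rose from 1.44 ± 0.740 to 5.69 ± 0.491 CPM (SD, n = 3 each), with a log2 fold change of 1.96 (SE 0.32, adjusted p = 9.07e-05, same test). PCDHGA10 was thus the member with the highest parental level, and its groups did not overlap. PCDHGB4 shares up to 4443 exonic bases with its neighbour PCDHGA8, more than the constant exons alone, so that reads between this pair are uncertain.

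The remaining called gamma genes were lower. PCDHGB2 (ENSG00000253910) had no parental count and 34.7, 59.1 and 50.8 counts in mutant libraries, at least 23.4-fold higher (adjusted p = 2.50e-05, edgeR quasi-likelihood test). PCDHGB1 was at least 9.21-fold and PCDHGA9 at least 8.08-fold higher, both without a parental count. PCDHGA11 had 4.72, 0 and 1 parental counts and 28.9, 17.0 and 13.9 in mutant libraries (log2 fold change 2.21, adjusted p = 9.01e-03, same test). PCDHGA6 was the tested member with the smallest difference, with 3.12, 6.37 and 7.03 parental counts and 14.7, 13.2 and 15.5 counts in mutant libraries. On the CPM scale its libraries overlapped, and its log2 fold change was 0.39 (SE 0.46, adjusted p = 0.447) and -0.76 with the length and GC offsets (adjusted p = 0.148, same test).

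The level per length places the members on 1 scale. In mutant cells PCDHGC3 was at 2.42 ± 0.369 CPM per kb (SD, n = 3). PCDHGB4 followed at 1.24 ± 0.110 and PCDHGA10 at 1.23 ± 0.106 CPM per kb, a difference below their spread. PCDHB11 at 0.760 ± 0.0858 and PCDHA12 at 0.715 ± 0.0120 CPM per kb also differed by less than the spread of PCDHB11. Next came PCDHB13 at 0.469 ± 0.0577, PCDHAC2 at 0.393 ± 0.0615 and PCDHGB2 at 0.353 ± 0.127 CPM per kb, of which PCDHAC2 and PCDHGB2 differed by less than their spread. The lengths are those deposited with the counts and include the constant exons of alpha and gamma genes.

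A few members carried most of each cluster, and the leading one was the same in each mutant library. PCDHA12 took 36.98% to 46.38% of the alpha counts and PCDHAC2 22.3% to 25.3%. PCDHB11 took 27.1% to 30.2% of the beta counts and PCDHB13 19.6% to 22.4%. PCDHGC3 took 33.9% to 41.7% of the gamma counts, PCDHGA10 18.6% to 18.9% and PCDHGB4 17.5% to 19.8%. The leading 3 members of a library together held 72.0% to 79.3% of alpha, 63.3% to 66.6% of beta and 72.7% to 77.8% of gamma counts. In parental libraries the leading members were PCDHAC2, with 52.4% to 82.3% of the few alpha counts, and PCDHGA10, with 46.5% to 60.4% of the gamma counts. Across the 53 genes, which are not independent replicates, the log2(CPM + 0.1) values of any 2 mutant libraries had Pearson correlations of 0.91 to 0.95, and those of any 2 parental libraries 0.65 to 0.71. Depth and the many members at or near 0 are shared by these points.

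**Figure D4:**
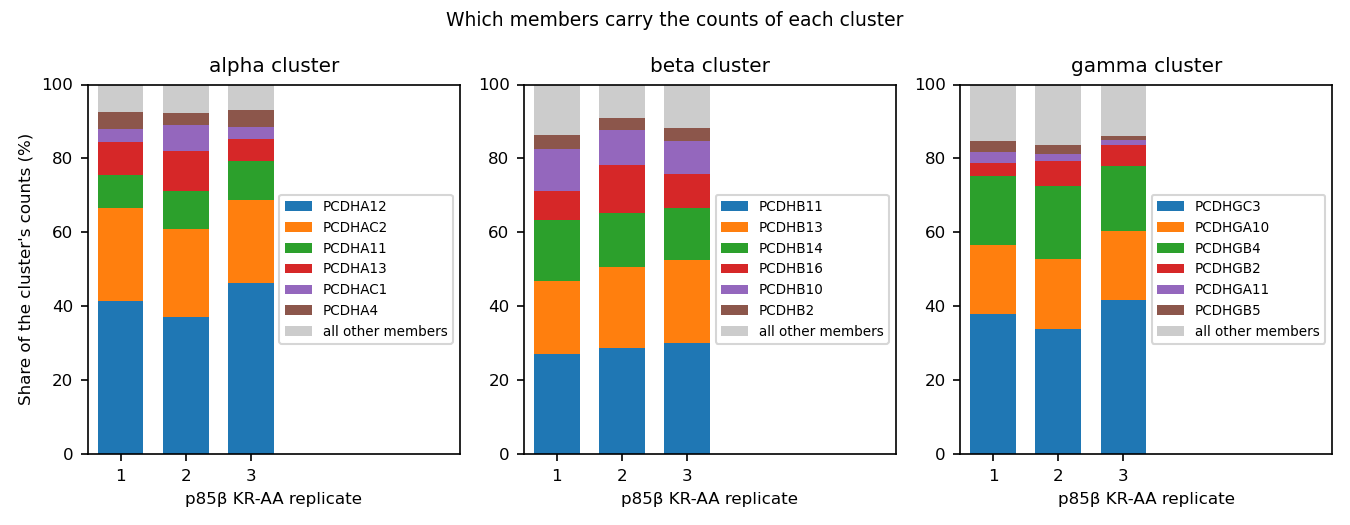
Share of the counts of each cluster (y axis, percent) taken by the 6 members with the highest mean share and by all others in each mutant replicate (x axis). The order of the members is much alike in the 3 replicates, led by PCDHA12, PCDHB11 and PCDHGC3.

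The coefficient of variation among mutant libraries, for members with a mean of at least 10 counts there, had a median of 15.3% in 6 alpha, 12.3% in 7 beta and 25.6% in 13 gamma genes. The cluster sums varied by 12.5%, 6.91% and 8.29%. A sum over many genes varies less than single genes with few counts, whether or not they share exons.

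The genes around the locus are for the most part expressed in both groups, whereas the tested members passed the filter through their mutant counts, so that the 2 sets are not alike in how they were selected. Of 33 tested protein-coding genes within 1 Mb of the first or last member, 5 were called higher (15.2%, against 28.6% of all tested genes) and 3 lower, and the median log2 fold change was -0.06. With the length and GC offsets 5 were called higher and 2 lower, and the median was 0.33. The higher ones were IGIP, ANKHD1-EIF4EBP3, PCDH12, RNF14 and SPRY4, and the lower ones SRA1, NDUFA2 and TMCO6. TAF7, a subunit of the general transcription factor TFIID whose gene lies between the beta and gamma clusters on the minus strand, had 485, 907 and 877 counts in parental and 3315, 2598 and 1912 in mutant libraries and was not called (log2 fold change 0.72, SE 0.22, adjusted p = 8.70e-03, edgeR quasi-likelihood test). SLC25A2, a mitochondrial carrier gene in the same interval, had no count in any library. DIAPH1 and HDAC3, beyond the end of the gamma cluster, had log2 fold changes of 1.02 and -1.29 and were not called.

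**Figure D5:**
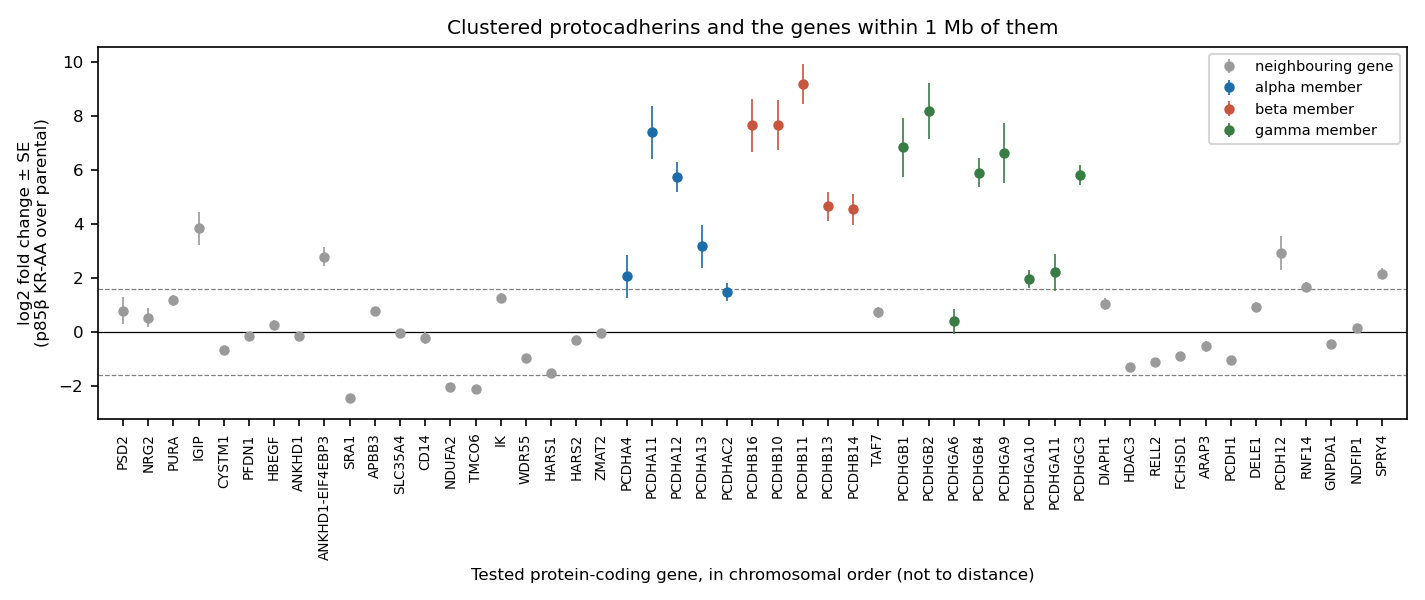
Log2 fold change of mutant over parental cells (y axis, bars are SE from the edgeR fit) for the tested members and the tested genes within 1 Mb, in chromosomal order and not to distance. Dashed lines mark a fold change of 3. The members lie above 0 and mostly above the upper line, while the neighbouring genes scatter around a median of -0.06 (0.33 with the length and GC offsets). The members shown passed the filter through their mutant counts, and values of members without parental counts depend on the fit and are not bounds.

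The other genes of the family, of the control of the locus and of the signalling of its proteins were read from lists. Of 12 non-clustered protocadherins, which lie at other sites or apart from the clusters, 6 were tested. Called higher were 5 of these (83.3%, against 28.6% of all tested genes). PCDH9, PCDH11X, PCDH12 and PCDH20 had at most 5 counts over the parental group and passed the filter through their mutant counts. The share therefore describes these genes without bearing on the rest of the family. With the length and GC offsets PCDH9, PCDH12 and PCDH20 were still called, where the share of all genes is 17.8%. PCDH7 rose from 2.77 to 13.5 CPM with a log2 fold change of 2.29 (SE 0.23). PCDH9 reached a mean of 3.93 CPM with 1 count over the parental libraries, and PCDH20 reached 2.65 CPM with none. PCDH12 and PCDH11X were also called higher, at 0.880 and 0.992 CPM. The most abundant of the list, PCDH1, had 113 CPM in parental and 53.9 CPM in mutant cells and was not called (log2 fold change -1.06).

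Of 26 genes for the architecture and silencing of the locus, all were tested, and the median log2 fold change was 1.74. Called higher were 14 (53.8%, against 28.6% of all tested genes) and called lower 1 (17.6% of all tested genes). With the length and GC offsets 2 were called higher, 0 lower, and the median was 0.47. The share of all genes called higher with the offsets is 17.8%. CTCF, the insulator protein that binds protocadherin promoters and enhancers, had 33.7 ± 4.99 CPM in parental and 46.1 ± 1.95 CPM in mutant cells (SD, n = 3 each) and was not called (log2 fold change 0.45, adjusted p = 0.0135, edgeR quasi-likelihood test). The cohesin subunit SMC1A was called higher with a log2 fold change of 1.75, which was -0.05 with the offsets. The cohesin subunit RAD21 at 1.45 and the maintenance DNA methyltransferase DNMT1 at 0.50 were not called. TRIM28, a co-repressor of KRAB zinc finger proteins, fell from 1500 to 315 CPM (log2 fold change -2.25, adjusted p = 1.62e-08, same test), and its log2 fold change with the offsets was -0.81. Of 22 signalling and processing partners of protocadherins, all tested, 8 were called higher (36.4%, against 28.6% of all tested genes) and 2 lower. With the offsets 3 were called higher, where the share of all genes is 17.8%, so that the list was close to all genes. NCSTN, a subunit of the γ-secretase that cleaves protocadherins, was among these 3, with a log2 fold change of 1.75 and 1.85 with the offsets. CTNNB1, the gene for β-catenin, had a log2 fold change of 0.62 and was not called.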

How the data were processed

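Total RNA of DLD1 parental and p85β KR-AA cells was sequenced from TruSeq libraries, a kit that does not mark strand, in 3 libraries per group. The table deposited by the authors holds estimated counts for Ensembl genes, which are not normalized, and a gene length. The submitters' processing notes name HISAT2 2.1.0, RSEM 1.3.1, DESeq2 1.24.0 and hg18, with no role or order, and the annotation behind the counts is not given in the sources used here. Estimated counts were rounded, since the design had assumed whole counts, filtered with filterByExpr (minimum count 10, minimum total 15), scaled with TMM and tested with edgeR 4.0.16 in R 4.3.3 (quasi-likelihood F test, no covariate, Benjamini-Hochberg over all 16059 tested genes). A call needed a 3-fold difference and an adjusted p under 0.01, the thresholds of the study's methods. All columns mapped to samples by name, and 0 were left over. Groups and replicate numbers came from the sample titles. The labels do not say that replicates were separate cultures, so that p-values measure the spread between these libraries, which may be technical. Replicates of a group were not copies of 1 library, with a chi-square per degree of freedom of 4.29 to 39.1 between their counts.

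Symbols and GRCh37 positions came from GENCODE release 44 (56745 of 58884 identifiers matched), and promoter sequences from RefSeq with GRCh38.p14. Protein sequences were not used here. Members, lists and motifs were chosen with earlier results of these data known. Values in every library are given for the 4 members of each cluster with the highest mean CPM, for all C-type members and for members called against their cluster. Of each list, up to 6 genes with the highest mean CPM were to be named, and other members or genes are named for completeness after their values were seen. Ratios over 1 to 3 parental counts have exact (Clopper-Pearson) 95% intervals, and intervals and limits cover counting error only. Alternatives were DESeq2 1.42.0, library totals, no filter, at least 10 counts in every library, a replicate block, each library left out, a fold of 2 with an adjusted p of 0.05, and offsets per library for length and GC content (splines with 5 degrees of freedom, 15902 genes). On simulated counts for this comparison, over 15662 genes, edgeR recovered 100% of genes changed 4-fold and 100% of those changed 8-fold and called 1 unchanged gene. The changed genes were few and drawn only from genes above a cut on mean counts, and all others had equal means in both groups. This recovery therefore does not cover members with few parental counts, or TMM scaling where many genes differ.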

Additional observations from a re-analysis of the deposited data

How the results depend on the processing

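The counts of called members depended on the filter more than on the test. Called higher were 3 alpha, 5 beta and 7 gamma members. The numbers were 3, 6 and 7 with DESeq2, 2, 5 and 7 with the length and GC offsets, 5, 5 and 7 with library totals, 4, 9 and 14 without a filter, and 5, 5 and 7 at a fold of 2 and an adjusted p of 0.05. With at least 10 counts in every library no member could be tested, so that the numbers were 0, 0 and 0, which follows from the parental counts. With each library left out in turn they were 2 to 5, 5 to 7 and 6 to 9. Leaving out p85β KR-AA replicate 3 gave 5 alpha members. No member was called lower under any of these settings. Library totals in place of TMM moved the summed p85β KR-AA level to 13.0 CPM for alpha, 15.3 for beta and 41.7 for gamma. With TMM these were 9.39, 11.1 and 30.3. The parental sums moved the other way, to 0.884, 0.193 and 1.86 CPM from 1.20, 0.260 and 2.54, so that the ratios between the groups grew. The scaling factors differ between the groups. Of 132 alternative values for 12 members, 126 kept their direction and side of the thresholds, 3 of PCDHA13 lost the call, 3 of PCDHAC2 gained it, and none reversed.

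Same-numbered libraries did not deviate together, with correlations of -0.136, 0.119 and -0.045, so that the labels give no pairing. The replicate block left the called members at 3, 5 and 7. With the block, and without a filter, edgeR's prior degrees of freedom were infinite, so that every gene had the pooled variance and p-values of single genes are not given from these fits. Over all genes, the numbers called higher and lower were 4597 and 2825, 7052 and 973 with library totals, and 2830 and 1041 with the offsets. At under 10 parental counts for most members, depth sets the fold changes of single genes, and changes at members with few counts in both groups were not detectable.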

Other observations

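The pseudogenes and long non-coding genes annotated within the protocadherin locus had few counts. Of 6 protocadherin pseudogenes, 4 had a count in at least 1 library, and the highest value was 4 counts. Of 20 long non-coding genes there, 8 had a count. The highest was ENSG00000272070 (plus strand of chromosome 5 of GRCh37, 140705777 to 140708930), which lies just before the gamma cluster and is named after its values were seen. It had 0, 0 and 1 counts in parental libraries and 11, 8 and 9 counts in p85β KR-AA libraries. The 13 minus-strand long non-coding genes had at most 3.06 counts in any library. As the kit does not mark strand, reads of these genes and of protocadherins that overlap them cannot be told apart.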
